A study of Homo sapiens with 58 samples.

Results

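What serum did that EGF did not was examined in HaCaT-EGFR cells by setting their arrays in serum against their arrays with EGF, all from the same processing date, called batch 6. The comparison took 5 of the 58 arrays of the study, 2 in serum and 3 with EGF, chosen by their labels. The tested arrays were 1 of serum labelled 4 h and 1 of serum labelled 8 h, against 2 of EGF at 4 h and 1 of EGF at 8 h. Another 4 arrays of batch 6 repeated the setting with the EGFR kinase inhibitor gefitinib: serum with gefitinib at 4 h and 8 h, against EGF with gefitinib at 4 h and 8 h, 1 array each. Serum starved HaCaT-EGFR cells without ligand gave 3 more arrays of batch 6, and 4 EGF and 4 starved arrays of batches 2 and 3 were used beside them.

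HaCaT is a spontaneously immortalized, aneuploid line of human keratinocytes of monoclonal origin, and HaCaT-EGFR carries additional wild-type EGFR, the receptor for epidermal growth factor. All serum, EGF, starved and gefitinib arrays named above came from that 1 line. Arrays of other HaCaT lines entered the estimate of the spread. The EGF cells had been kept in serum-free medium before EGF was added, whereas the serum cells were in medium with fetal calf serum, so the groups differed in serum itself as well as in EGF. The study's sample sheet names the same 4 h and 8 h for the serum arrays but codes no stimulation time for them. The p-values therefore rest on a spread pooled over arrays of all conditions and dates, not on the compared arrays only. Nothing in the labels says whether arrays of 1 group came from separate cultures, so that spread may be technical.

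EGF activates its receptor's kinase, and the signal reaches the nucleus largely through the RAS, MEK and ERK kinases, whose target genes include dampers of the same pathway. Serum holds many agonists at once, among them growth factors, bone morphogenetic proteins, lysophospholipids, lipoproteins and hormones. Interferon-stimulated genes are the genes that cells switch on when type I or type III interferon reaches them or when they sense viral nucleic acid. The IFIT proteins among them are built of tetratricopeptide repeats, and several of them bind RNA or curb translation. In keratinocytes some of these genes are on at a basal level without infection.

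Serum and EGF gave closely similar profiles. With 1 probe set kept per gene, the only genes that passed the test between them belonged to the interferon-induced IFIT family. Of 19775 genes, 3 were higher in serum than with EGF at an adjusted p under 0.05, which is 0.0152% of the genes, and 0 (0.0%) were lower. The 3 genes were IFIT2, IFIT1 and IFIT3, and IFIT2 was 3.81-fold higher. The count depended on single arrays and on the fit. It was 103 (90 higher, 13 lower) without the serum array at 8 h, 1 without the serum array at 4 h, and 11 with condition and date as additive terms, of which 1 was among the 3. At an unadjusted p under 0.05, limma called 992 genes (5.02%), 591 higher (2.99%) and 401 lower (2.03%). Across genes the log2 differences had a median of 0.005 and an SD of 0.2161, and 31 genes differed by more than 1 on the log2 scale, 15 higher and 16 lower in serum. In simulated data of the same design, 50 genes each were changed by 0.5, 1, 1.5 and 2 on the log2 scale. Of those changed by 1, 74% were recovered, against 28% of those changed by 0.5, so smaller differences would mostly be missed. These shares hold for that number of changed genes, and other numbers were not simulated.

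**Figure D1:**
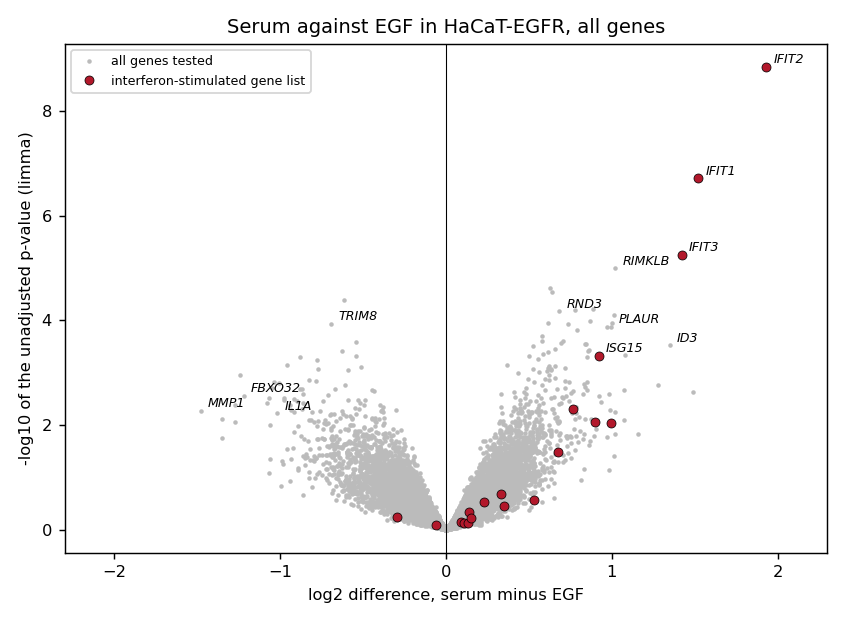
Log2 difference of serum minus EGF (x axis) against -log10 of limma's unadjusted p-value (y axis) for 19775 genes in HaCaT-EGFR, with 19 measured interferon-stimulated genes as red points. IFIT2, IFIT1 and IFIT3 stand at the upper right, with log2 differences of 1.93, 1.52 and 1.42, and no other gene passed the adjusted threshold.

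The arrays were compared before the genes. Median log2 values of the 5 arrays ran between 6.13 and 6.23, and their pairwise correlations across genes between 0.986 and 0.996. The serum array at 4 h and the first EGF array at 4 h stood apart most, with 27 and 34 genes more than 1 above all the other 4 arrays and 22 and 18 genes more than 1 below them. The other 3 arrays had 0 or 1 such gene in each direction. Of 9 EGFR probe sets, 2 lay in all 14 HaCaT-EGFR arrays of batch 6 above all 4 HaCaT-vector arrays of that batch, and the brightest one overlapped, with 9.53 to 10.01 in HaCaT-EGFR and 9.46 to 9.82 in HaCaT-vector. Keratinocyte markers, of which 7 of 10 were measured, had a mean log2 value of 10.91 to 11.02 in serum and 10.91 to 11.12 with EGF. Markers of fibroblasts, melanocytes, leukocytes and endothelium had mean values between 4.20 and 5.01 in the same 5 arrays, and 0 of them passed the test.

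The IFIT genes lie next to each other on chromosome 10. Stretches around the start sites of IFIT1, IFIT3 and IFIT5, from 250 bases before to 50 bases after the RefSeq start in GRCh38.p14, are shown because matches to the interferon-stimulated response element motif (GAAA, then 2 bases of any kind, then GAAA), searched on both strands, lie close together in them. The motif and these windows were chosen after the values were seen. Capitals mark the matches, read 5′ to 3′ on the plus strand, and overlapping matches are marked as 1 run.
IFIT1, chr10:89392373-89392672: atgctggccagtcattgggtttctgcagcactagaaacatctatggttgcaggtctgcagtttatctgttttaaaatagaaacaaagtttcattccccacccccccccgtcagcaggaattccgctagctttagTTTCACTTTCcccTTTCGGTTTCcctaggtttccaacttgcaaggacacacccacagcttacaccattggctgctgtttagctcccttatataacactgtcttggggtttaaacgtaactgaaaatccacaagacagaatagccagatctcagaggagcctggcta
IFIT3, first start, chr10:89327747-89328046: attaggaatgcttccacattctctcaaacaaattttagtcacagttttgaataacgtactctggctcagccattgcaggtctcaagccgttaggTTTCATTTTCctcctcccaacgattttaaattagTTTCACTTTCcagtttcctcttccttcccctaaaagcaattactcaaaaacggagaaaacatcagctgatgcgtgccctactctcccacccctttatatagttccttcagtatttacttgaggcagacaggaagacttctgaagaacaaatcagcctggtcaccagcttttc
IFIT3, second start, chr10:89332279-89332578: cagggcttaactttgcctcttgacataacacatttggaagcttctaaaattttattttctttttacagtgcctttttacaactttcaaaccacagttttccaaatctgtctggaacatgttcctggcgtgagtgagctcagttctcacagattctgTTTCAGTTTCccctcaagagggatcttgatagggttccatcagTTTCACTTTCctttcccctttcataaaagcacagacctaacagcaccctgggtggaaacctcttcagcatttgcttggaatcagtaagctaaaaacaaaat
IFIT5, chr10:89414318-89414617: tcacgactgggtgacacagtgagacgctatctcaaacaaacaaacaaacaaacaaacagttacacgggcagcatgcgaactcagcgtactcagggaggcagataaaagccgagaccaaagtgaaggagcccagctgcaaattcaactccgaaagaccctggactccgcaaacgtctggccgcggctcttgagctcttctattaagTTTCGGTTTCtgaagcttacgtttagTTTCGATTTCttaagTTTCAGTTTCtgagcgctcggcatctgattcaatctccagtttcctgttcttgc
In all of these the matches lie on the minus strand, so the capitals start and end with TTTC. The motif occurred in 613 of the 15384 tested genes with a RefSeq window (3.98%), and in 10 of the 14 such genes (71.4%) of the interferon-stimulated list. Both genes with a window among the 3 that passed held it. IFIT5 held 3 matches and did not pass the test. Another 2 motifs tied to serum response in other cells were searched alike. The CArG box, which serum response factor binds, was in 1.66% of all genes and in 0 of the 2 genes that passed, and GGAATG, which TEAD factors bind, was in 15.7% of all genes and in 2 of those 2.

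IFIT2, whose protein has been tied to translational arrest and cell death, had log2 values of 12.48 and 12.36 in serum, and 10.63, 10.36 and 10.49 with EGF. Both serum arrays lay far above all 3 EGF arrays. The log2 difference was 1.93 ± 0.23 (SE, 95% interval 1.46 to 2.40; adjusted p = 2.88e-05). The second IFIT2 probe set, which the rule for 1 probe set a gene had left aside, differed by 1.53. IFIT1, which recognizes RNA whose cap lacks the methylation of host messages, had 10.00 and 9.99 in serum, and 8.44, 8.52 and 8.49 with EGF. The groups were again fully apart, and the replicates within each were close. Its log2 difference was 1.52 ± 0.23 (SE, 95% interval 1.05 to 1.98; adjusted p = 0.00191). IFIT3, a partner that stabilizes IFIT1, had 10.71 and 10.69 in serum, and 9.36, 9.19 and 9.30 with EGF. No arrays overlapped, and the log2 difference of 1.42 ± 0.26 (SE, 95% interval 0.88 to 1.95) had an adjusted p of 0.0372. Its second probe set differed by 1.41. The genes are paralogs, and cross-hybridization between their probe sets was not tested. IFIT5, the fourth human paralog, had 9.52 and 9.62 in serum, and 9.47, 9.42 and 9.48 with EGF, a log2 difference of 0.12 ± 0.14 (SE, 95% interval -0.16 to 0.40).

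The calls were not equally firm. IFIT2 passed in all 15 alternatives run and IFIT1 in 13. IFIT1 did not pass with condition and date as additive terms (adjusted p = 0.0598) or without the serum array at 4 h (0.15). IFIT3 passed in 8 of 15, with adjusted p-values between 0.00865 and 0.477, and among the 5 fits that each leave out 1 array it passed only where the serum array at 8 h was left out. The differences themselves stayed between 1.86 and 2.00 for IFIT2, 1.47 and 1.55 for IFIT1, and 1.37 and 1.46 for IFIT3.

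**Figure D2:**
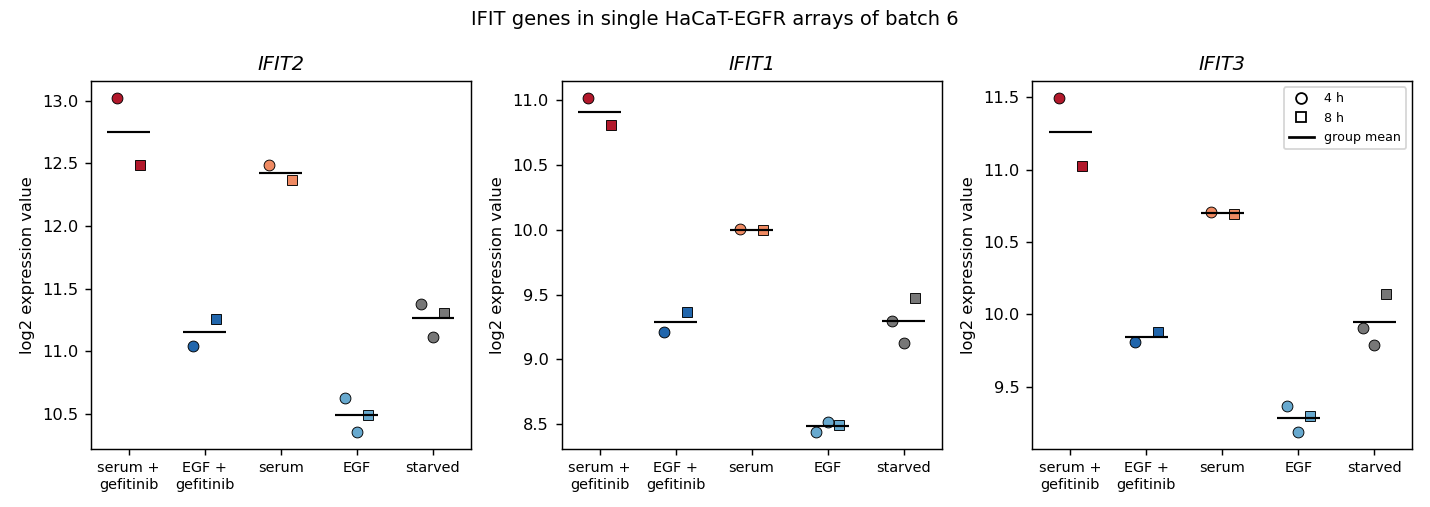
Log2 expression of IFIT2, IFIT1 and IFIT3 (y axes, each with its own range) in single HaCaT-EGFR arrays of batch 6, by group (x axis), with circles for 4 h, squares for 8 h and lines for group means. In each gene serum lies above starved and EGF lies below it, and serum with gefitinib lies above EGF with gefitinib.

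Starved cells lay between serum and EGF for the 3 IFIT genes. IFIT2 had 11.38, 11.11 and 11.31 in the starved arrays of batch 6, below both serum arrays and above all EGF arrays. Serum against starved gave a log2 difference of 1.16 (adjusted p = 0.0076), and EGF against starved gave -0.77 (0.1). IFIT1 had 9.30, 9.13 and 9.47 in starved cells, again between both groups, with 0.70 for serum (adjusted p = 0.11) and -0.81 for EGF (0.078) against starved. IFIT3 had 9.91, 9.79 and 10.14, with 0.75 (0.14) and -0.66 (0.27). These comparisons share the starved arrays with each other, and the serum and EGF arrays with the main comparison. Over all genes 341 (1.72%) passed for serum against starved and 51 (0.258%) for EGF against starved. In batches 2 and 3, whose arrays enter no other comparison here and where 768 genes (3.88%) passed, EGF against starved gave -0.74 for IFIT2 (adjusted p = 0.015), -0.65 for IFIT1 (0.032) and -0.55 for IFIT3 (0.13). IFIT2 and IFIT1 thus fell with EGF there, whereas in batch 6 the same differences were of like size and did not pass.

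Most other interferon-stimulated genes lay on the same side with smaller differences. Of 20 listed genes 19 were measured, 17 had positive log2 differences, and the list's median was 0.35 against 0.005 for all genes. Both serum arrays were above all 3 EGF arrays in 12 of the 19 genes and below them in 0, whereas over all genes 9.62% were fully above and 9.44% fully below. The 3 IFIT genes passed, and 8 of the 19 had an unadjusted p under 0.05 by limma, all higher, where 2.99% of all genes were. ISG15, a ubiquitin-like protein that is attached to other proteins, had 9.69 and 9.87 in serum, and 9.03, 8.85 and 8.70 with EGF. The groups did not overlap, and the log2 difference of 0.92 ± 0.24 (SE) had an adjusted p of 0.253. OASL, a relative of the oligoadenylate synthetases, had 7.78 and 8.11 in serum, and 7.04, 7.15 and 6.94 with EGF, a difference of 0.90 ± 0.32 (SE). RIGI, a cytosolic sensor of viral RNA, had 9.06 and 9.15 in serum, and 8.40, 8.38 and 8.23 with EGF, a difference of 0.77 ± 0.25 (SE). IFI44 differed by 0.99 ± 0.36 (SE) and RSAD2, which encodes the antiviral enzyme viperin, by 0.68 ± 0.30 (SE), and in both the groups did not overlap. None of these 5 genes passed.

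Others in the list hardly differed. MX1, a dynamin-like antiviral GTPase and a common marker of the interferon response, had 7.46 and 7.68 in serum, and 7.54, 7.59 and 7.26 with EGF, a difference of 0.11 ± 0.32 (SE, 95% interval -0.54 to 0.77). IFI44L had 5.70 and 7.19 in serum, and 6.47, 7.08 and 6.67 with EGF, so the serum arrays lay on either side of the EGF arrays. IFIH1, which encodes the RNA sensor MDA5 and is not in the list, was chosen after its values were seen. It had 8.55 and 9.09 in serum, and 8.46, 8.02 and 8.08 with EGF, a difference of 0.63 ± 0.17 (SE, adjusted p = 0.322). Of the interferon genes, IFNK, the keratinocyte interferon, had 4.13 and 5.31 in serum, and 3.48, 3.78 and 3.87 with EGF, a difference of 1.01 ± 0.47 (SE, adjusted p = 0.935) that came mostly from the serum array at 8 h. IFNB1 had 4.33 and 3.84 in serum, and 3.62, 3.82 and 3.85 with EGF, and the groups overlapped. Both interferon genes were also chosen after their values were seen.

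**Figure D3:**
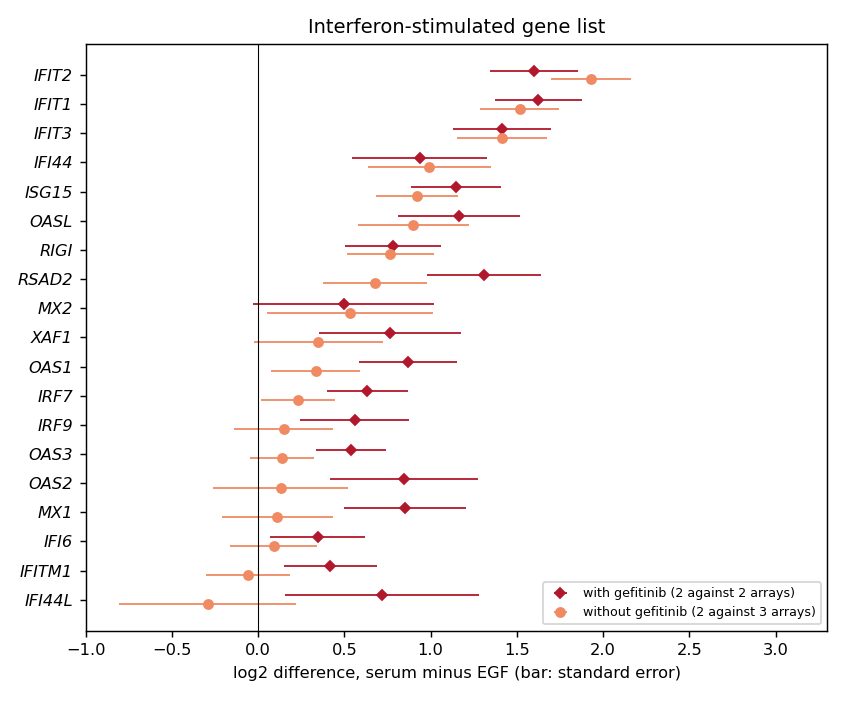
Log2 difference of serum minus EGF (x axis, with standard errors as bars) for 19 measured interferon-stimulated genes, with gefitinib (diamonds, 2 against 2 arrays) and without it (circles, 2 against 3 arrays). With gefitinib all 19 differences are positive, and without it 17 are.

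Time moved some of these genes more than others. The difference between serum and EGF was 1.99 at 4 h and 1.87 at 8 h for IFIT2, and 1.43 and 1.39 for IFIT3, with IFIT1 between them at both times. The gap of the 3 genes was thus of nearly the same size at 4 h and 8 h. RSAD2 differed by 0.23 at 4 h and 1.30 at 8 h, IFIH1 by 0.31 and 1.01, and IFI44L by -1.07 and 0.52. With 1 serum array a time, these have no replicate of their own and were not tested.

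Outside the interferon-stimulated list, several genes came close to the threshold on the higher side. PLAUR was a member of the protease list, and the others in this paragraph are given as genes chosen after their values were seen. RIMKLB, an enzyme that joins glutamate to citrate or to N-acetylaspartate, had 10.65 and 9.89 in serum, and 9.17, 9.19 and 9.40 with EGF. Both serum arrays were above all EGF arrays, the 4 h array by far the most, and the log2 difference of 1.02 ± 0.20 (SE) had an adjusted p of 0.0505. It passed in 7 of 15 alternatives, with adjusted p-values from 0.00139 to 1. The other RIMKLB probe sets differed by less, 0.78, 0.405, 0.406 and -0.13. RND3 had 11.86 and 11.77 in serum, and 11.09, 11.08 and 11.23 with EGF, a clear gap of 0.68 ± 0.15 (SE, adjusted p = 0.133). PLAUR, the receptor for urokinase plasminogen activator, had 10.47 and 9.88 in serum, and 9.47, 9.09 and 8.98 with EGF, a difference of 1.00 ± 0.23 (SE, adjusted p = 0.146). WFDC21P, a pseudogene transcribed into a long noncoding RNA, had 8.76 and 8.41 in serum, and 7.76, 7.64 and 7.45 with EGF, a difference of 0.97 ± 0.22 (SE, adjusted p = 0.146). CFLAR, which keeps caspase-8 from being activated at death receptors, differed by 0.62 ± 0.14 (SE) and SEMA3A, a secreted guidance cue, by 0.74 ± 0.17 (SE), and FGF2, a fibroblast growth factor, by 0.79 ± 0.18 (SE). None overlapped between groups, where 9.62% of all genes were fully above, and none passed. Except for PLAUR, that lack of overlap was already known when the genes were chosen.

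Of the inhibitors of DNA binding, which hold back helix-loop-helix transcription factors and respond to bone morphogenetic proteins, ID3 and ID2 lay higher in serum without passing. ID3 had 8.92 and 8.51 in serum, and 7.52, 7.31 and 7.27 with EGF, a difference of 1.35 ± 0.33 (SE, adjusted p = 0.221). ID2 had 7.41 and 7.22 in serum, and 6.53, 6.27 and 6.38 with EGF, a difference of 0.92 ± 0.28 (SE, adjusted p = 0.532). In both genes the groups were apart. ID1 differed by 0.58 ± 0.31 (SE), and ID4 by 0.56 ± 0.37 (SE) with overlapping arrays. HEY1, a repressor that Notch and bone morphogenetic proteins induce, lay the other way, with 7.14 and 7.33 in serum, and 7.97, 7.94 and 7.71 with EGF, a difference of -0.64 ± 0.22 (SE). The list of 17 ID and BMP response genes as a whole had a median of -0.03, with 3 genes fully above (9.62% of all genes) and 2 fully below (9.44%), and 0 passed.

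The lower side held no gene that passed. MMP1, interstitial collagenase, had 6.30 and 6.51 in serum, and 8.26, 7.51 and 7.88 with EGF. The arrays were apart, but the log2 difference of -1.48 ± 0.50 (SE) had an adjusted p of 0.637. Starved cells had 5.71, 6.53 and 6.35, overlapping the serum arrays. In batches 2 and 3 MMP1 rose with EGF by 2.73 over starved (adjusted p = 0.0001). FBXO32, a ubiquitin ligase gene that FOXO factors induce, had 4.97 and 5.80 in serum, 6.88, 6.75 and 6.19 with EGF, and 8.29, 7.42 and 7.27 in starved cells. It was lowest in serum, by -1.22 ± 0.38 (SE, adjusted p = 0.532) against EGF, and it fell in serum against starved by 2.28 (0.0012). EREG, which encodes the EGFR ligand epiregulin, had 8.78 and 8.95 in serum, and 9.82, 9.48 and 9.52 with EGF, a difference of -0.74 ± 0.24 (SE, adjusted p = 0.57). HBEGF, another EGFR ligand, differed by -0.50 ± 0.34 (SE). IL1A, the cytokine interleukin-1α, had 6.87 and 7.84 in serum, and 8.61, 8.26 and 8.27 with EGF, a difference of -1.02 ± 0.35 (SE). CITED2, a transcriptional co-regulator in the FOXO list, differed by -0.78 ± 0.20 (SE, adjusted p = 0.269). TRIM8, a ubiquitin ligase, differed by -0.69 ± 0.16 (SE, adjusted p = 0.146), and GCLM, the modifier subunit of the enzyme that starts glutathione synthesis, by -0.55 ± 0.13 (SE, adjusted p = 0.22). TRIM8 and GCLM were chosen after their values were seen.

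Among genes that EGFR signaling is known to induce, none of the MAP kinase feedback genes or immediate-early factors passed between serum and EGF. The 21 MAP kinase feedback genes had a median of -0.18, with 0 fully above (9.62% of all genes) and 8 fully below (9.44%). DUSP6, the phosphatase that turns ERK off, had 10.55 and 10.59 in serum, and 10.97, 10.70 and 10.95 with EGF, a difference of -0.30 ± 0.27 (SE, 95% interval -0.86 to 0.25). SPRY4, an inhibitor of RAS signaling, differed by 0.06 ± 0.28 (SE, 95% interval -0.50 to 0.63) and DUSP4, another such phosphatase, by 0.02 ± 0.29 (SE, 95% interval -0.57 to 0.62). EGR1, an immediate-early transcription factor, had 13.18 and 13.43 in serum, and 13.64, 13.44 and 13.38 with EGF, and the groups overlapped. The 23 immediate-early genes had a median of -0.13, and 0 passed.

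The lists drawn up for what serum holds gave no gene that passed, and their counts stand beside 9.62% of all genes fully above and 9.44% fully below. The 25 targets of serum response factor and its cofactors had a median of 0.12, with 7 fully above and 3 fully below, and ACTA2, smooth muscle actin, had their largest difference, -0.86 ± 0.28 (SE). Medians were 0.06 over 21 YAP and TEAD targets, 0.01 over 19 TGF-β targets and -0.15 over 18 glucocorticoid-responsive genes. GADD45A, a stress gene among the YAP targets, had 11.48 and 11.48 in serum, and 10.99, 11.09 and 10.96 with EGF, a difference of 0.47 ± 0.14 (SE, adjusted p = 0.508). Of 25 cholesterol synthesis and SREBP genes, 22 had negative differences, 9 were fully below and 0 fully above, with a median of -0.17. SQLE, squalene epoxidase, differed by -0.37 ± 0.14 (SE). Of 23 genes of the ATF4 amino acid and endoplasmic reticulum stress response, 10 were fully below and 0 fully above, with a median of -0.19. Among them TRIB3, a pseudokinase, differed by -0.61 ± 0.18 (SE), SLC7A11, the cystine transporter, by -0.67 ± 0.20 (SE) and DDIT3, a stress-induced transcription factor, by -0.67 ± 0.29 (SE). Of 19 FOXO-induced genes 5 were fully below and 0 fully above, with a median of -0.22.

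Of the inflammatory and matrix genes 0 passed. Of 24 NF-κB targets and chemokines 8 were fully above (9.62% of all genes) and 3 fully below (9.44%), with a median of 0.17. At an unadjusted p under 0.05 limma called 4 of them higher (2.99% of all genes) and 3 lower (2.03%). CXCL8, the neutrophil chemoattractant interleukin-8, had 11.32 and 11.09 in serum, and 10.68, 10.30 and 9.83 with EGF, a difference of 0.93 ± 0.30 (SE, adjusted p = 0.57). TNFAIP3, the NF-κB inhibitor A20, had 10.36 and 9.90 in serum, and 9.30, 9.21 and 9.26 with EGF, a difference of 0.87 ± 0.31 (SE, adjusted p = 0.703). Against starved, CXCL8 rose in serum by 2.13 (adjusted p = 0.00012) and with EGF by 1.19 (0.042), and TNFAIP3 rose in serum by 1.56 (0.0067). CXCL3, a related chemokine, lay the other way, by -0.77 ± 0.33 (SE). Of 22 extracellular matrix genes 7 were fully above and 1 fully below. Tenascin-C, TNC, had 8.78 and 8.72 in serum, and 6.92, 8.12 and 8.13 with EGF, and versican, VCAN, 7.05 and 7.36 in serum, and 5.64, 6.74 and 6.74 with EGF. The low value in both was the first EGF array at 4 h, and without it the TNC difference was 0.62 in place of 1.02 and the VCAN difference 0.47 in place of 0.83. The first starved array at 4 h was low in the same genes, with 6.96 for TNC against 8.09 and 8.41 in the remaining starved arrays. FBN2, the matrix protein fibrillin-2, differed by 0.51 ± 0.23 (SE). KLF10, a growth factor-induced repressor, differed by 0.74 ± 0.23 (SE), also with the first EGF array at 4 h lowest.

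In the other lists 0 members passed, and the shares of all genes fully above and below were again 9.62% and 9.44%. Of 22 G1/S and replication genes 19 had positive differences, with a median of 0.12, and of 20 mitosis genes 17, with a median of 0.19, but 2 and 0 of them were fully above. Of 17 hypoxia-type genes 14 had negative differences, with a median of -0.22, 4 fully below and 1 fully above. The 14 circadian genes had a median of -0.22, with 6 fully below and 2 fully above. The 28 keratinocyte differentiation genes had a median of -0.09 (11 positive, 17 negative), with 1 fully above and 1 fully below, and the 12 hemidesmosome and basal genes a median of 0.02.

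**Figure D4:**
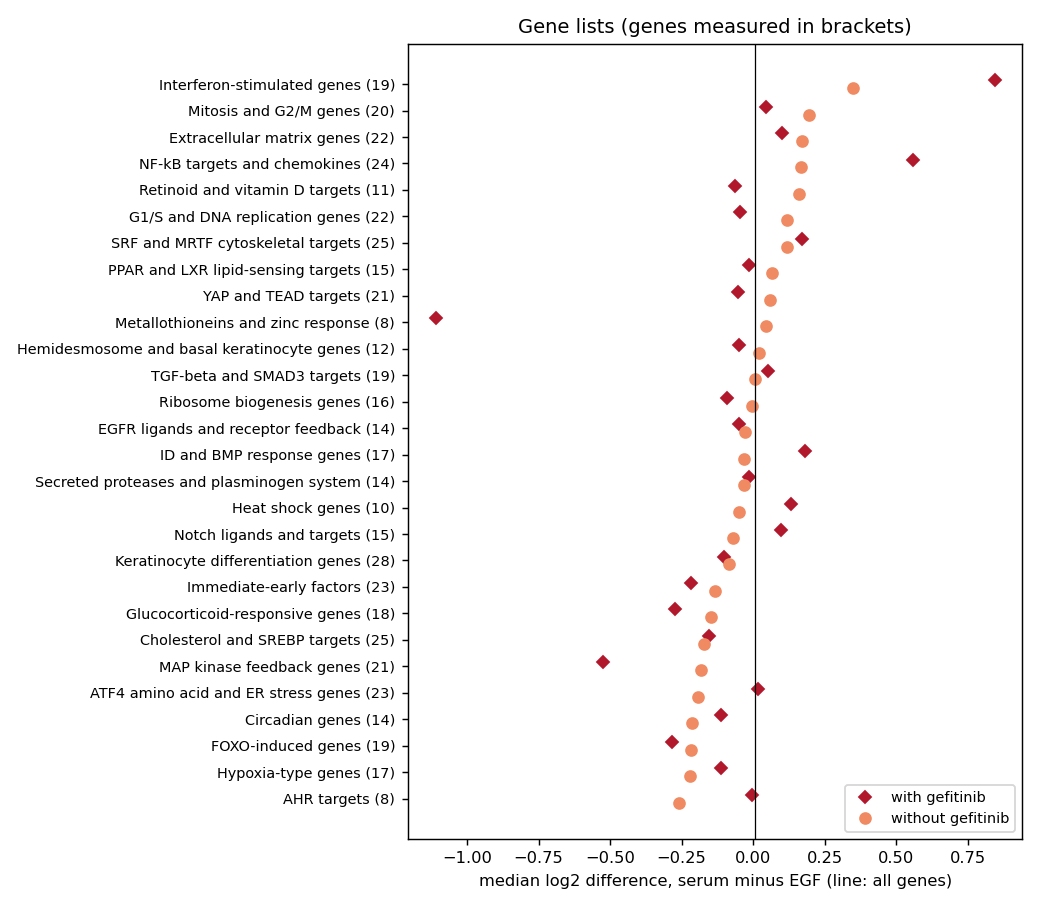
Median log2 difference of serum minus EGF (x axis) for the gene lists (rows, with the number measured in brackets), with gefitinib (diamonds) and without it (circles), and a line at the median of all genes. The interferon-stimulated list has the highest median in both, 0.84 with gefitinib and 0.35 without, and the metallothionein list is at -1.11 with gefitinib and 0.04 without.

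With gefitinib present on both sides, serum still held the IFIT genes above EGF. The comparison used 4 other arrays of batch 6, and 34 genes were higher (0.172%) and 9 lower (0.0455%) in serum with gefitinib than in EGF with gefitinib at an adjusted p under 0.05. At an unadjusted p under 0.05 limma called 912 genes (4.61%). IFIT2 had 13.02 and 12.48 in serum with gefitinib, and 11.04 and 11.26 in EGF with gefitinib, a difference of 1.60 ± 0.25 (SE, adjusted p = 0.00167). IFIT1 had 11.02 and 10.80 in serum with gefitinib, and 9.21 and 9.36 in EGF with gefitinib, a difference of 1.62 ± 0.25 (SE, adjusted p = 0.0015). IFIT3 had 11.50 and 11.02 in serum with gefitinib, and 9.81 and 9.88 in EGF with gefitinib, a difference of 1.41 ± 0.29 (SE, adjusted p = 0.0178). Over 6 alternatives the differences stayed between 1.33 and 1.87 for IFIT2, 1.52 and 1.73 for IFIT1, and 1.18 and 1.65 for IFIT3. None of these genes passed in every alternative, and their calls depended on single arrays. The difference between the gap with gefitinib and the gap without it was -0.33 ± 0.34, 0.11 ± 0.34 and 0.00 ± 0.39 (SE) for these genes, with an adjusted p of 1 in each, so neither a wider nor a narrower gap was shown.

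Of the 19 interferon-stimulated genes all had positive differences with gefitinib and 18 were fully above, where 23.0% of all genes were, with a median of 0.84. The IFIT genes and ISG15 passed. ISG15 had 10.18 and 10.34 in serum with gefitinib, and 9.04 and 9.18 in EGF with gefitinib, a difference of 1.15 ± 0.26 (SE, adjusted p = 0.0477). IFIH1 also passed, at 0.91 ± 0.19 (SE, adjusted p = 0.0222). RSAD2 differed by 1.31 ± 0.33 (SE), MX1 by 0.85 ± 0.35 (SE) and IFI44L by 0.72 ± 0.56 (SE), and these did not pass. IFIT5 differed by 0.36 ± 0.15 (SE, adjusted p = 0.854). Of the 34 genes higher with gefitinib 26 had a promoter window, and 5 of them (19.2%) held the response element motif, against 3.98% of all genes. IFIT1, IFIT3 and ISG15 were among these 5. Of the lower genes 7 had a window and 0 held the motif, too few genes to set against that share.

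ID3, ID2 and ID4 passed in this setting, but each passed in 2 of 6 alternatives and in 0 of the 4 fits that leave out 1 array. ID3 had 9.66 and 9.66 in serum with gefitinib, and 7.82 and 7.96 in EGF with gefitinib, a difference of 1.76 ± 0.36 (SE, adjusted p = 0.0222). ID2 had 8.33 and 8.17 in serum with gefitinib, and 6.55 and 6.74 in EGF with gefitinib, a difference of 1.60 ± 0.31 (SE, adjusted p = 0.0128). ID4 had 6.08 and 5.89 in serum with gefitinib, and 4.07 and 3.82 in EGF with gefitinib, a difference of 2.04 ± 0.41 (SE, adjusted p = 0.0178), where without gefitinib its arrays overlapped. ID1 differed by 0.39 ± 0.34 (SE) and did not pass. WFDC21P had 10.47 and 10.23 in serum with gefitinib, and 7.95 and 7.90 in EGF with gefitinib, a difference of 2.43 ± 0.25 (SE, adjusted p = 5.59e-07). PLAUR had 9.71 and 9.02 in serum with gefitinib, and 8.01 and 8.03 in EGF with gefitinib, a difference of 1.35 ± 0.25 (SE, adjusted p = 0.00971). RND3 had 0.72 ± 0.16 (SE, adjusted p = 0.0477, but 0.0867 to 0.833 in 6 alternatives, none of which it passed), and RIMKLB, at 0.72 ± 0.21 (SE, adjusted p = 0.264), did not.

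Of the 28 keratinocyte differentiation genes 1, GRHL3, passed with gefitinib. That list had a median of -0.10 (11 positive, 17 negative), with 6 fully above (23.0% of all genes) and 14 fully below (20.1%). GRHL3 and other genes higher with gefitinib are given as chosen after their values were seen. OVOL1, an epithelial transcription factor, rose by 1.32 ± 0.24 (SE, adjusted p = 0.00771) and CGN, the tight junction protein cingulin, by 0.86 ± 0.19 (SE, adjusted p = 0.0389). CGN passed in 0 of 6 alternatives, with adjusted p-values from 0.0825 to 0.594. ADAMTS9, a secreted protease, rose by 1.99 ± 0.42 (SE, adjusted p = 0.0257) and EZR, which links actin to the membrane, by 0.62 ± 0.12 (SE, adjusted p = 0.0178). GRHL3, a transcription factor of epidermal barrier formation, had 7.12 and 6.77 in serum with gefitinib, and 5.08 and 5.08 in EGF with gefitinib, a difference of 1.86 ± 0.38 (SE, adjusted p = 0.0178). Without gefitinib it had 4.62 and 5.29 in serum, and 5.84, 5.08 and 4.58 with EGF, and the groups overlapped.

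The 9 genes lower in serum with gefitinib included 4 that EGFR signaling is known to induce. DUSP6 had 7.87 and 7.46 in serum with gefitinib, and 9.45 and 9.70 in EGF with gefitinib, a difference of -1.91 ± 0.30 (SE, adjusted p = 0.0015). EGR1 had 10.93 and 12.06 in serum with gefitinib, and 13.29 and 13.64 in EGF with gefitinib, a difference of -1.97 ± 0.24 (SE, adjusted p = 2.22e-05). ETV5, a transcription factor downstream of ERK, had 8.10 and 7.01 in serum with gefitinib, and 10.25 and 9.44 in EGF with gefitinib, a difference of -2.29 ± 0.50 (SE, adjusted p = 0.0347). ETV5 passed in 0 of 6 alternatives, with adjusted p-values from 0.0599 to 0.752. IER3, an immediate-early survival gene, had 9.90 and 9.91 in serum with gefitinib, and 11.14 and 11.21 in EGF with gefitinib, a difference of -1.27 ± 0.24 (SE, adjusted p = 0.0128). In all 4 genes both arrays in serum with gefitinib lay below both arrays in EGF with gefitinib, and without gefitinib the corresponding differences were between -0.48 and -0.18. GJB2, the gap junction protein connexin 26, fell by 1.60 (adjusted p = 0.0278), and COQ8A, needed for coenzyme Q synthesis, fell by 0.80 (adjusted p = 0.0124), but it passed in 0 of 6 alternatives, with adjusted p-values from 0.0507 to 0.39. GJB2 and COQ8A were chosen after their values were seen. Of the 21 MAP kinase feedback genes, DUSP6 and ETV5 passed, 13 were fully below, where 20.1% of all genes were, and the median was -0.52. DUSP4 and SPRY4 differed by -1.29 ± 0.32 and -1.19 ± 0.30 (SE) without passing.

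**Figure D5:**
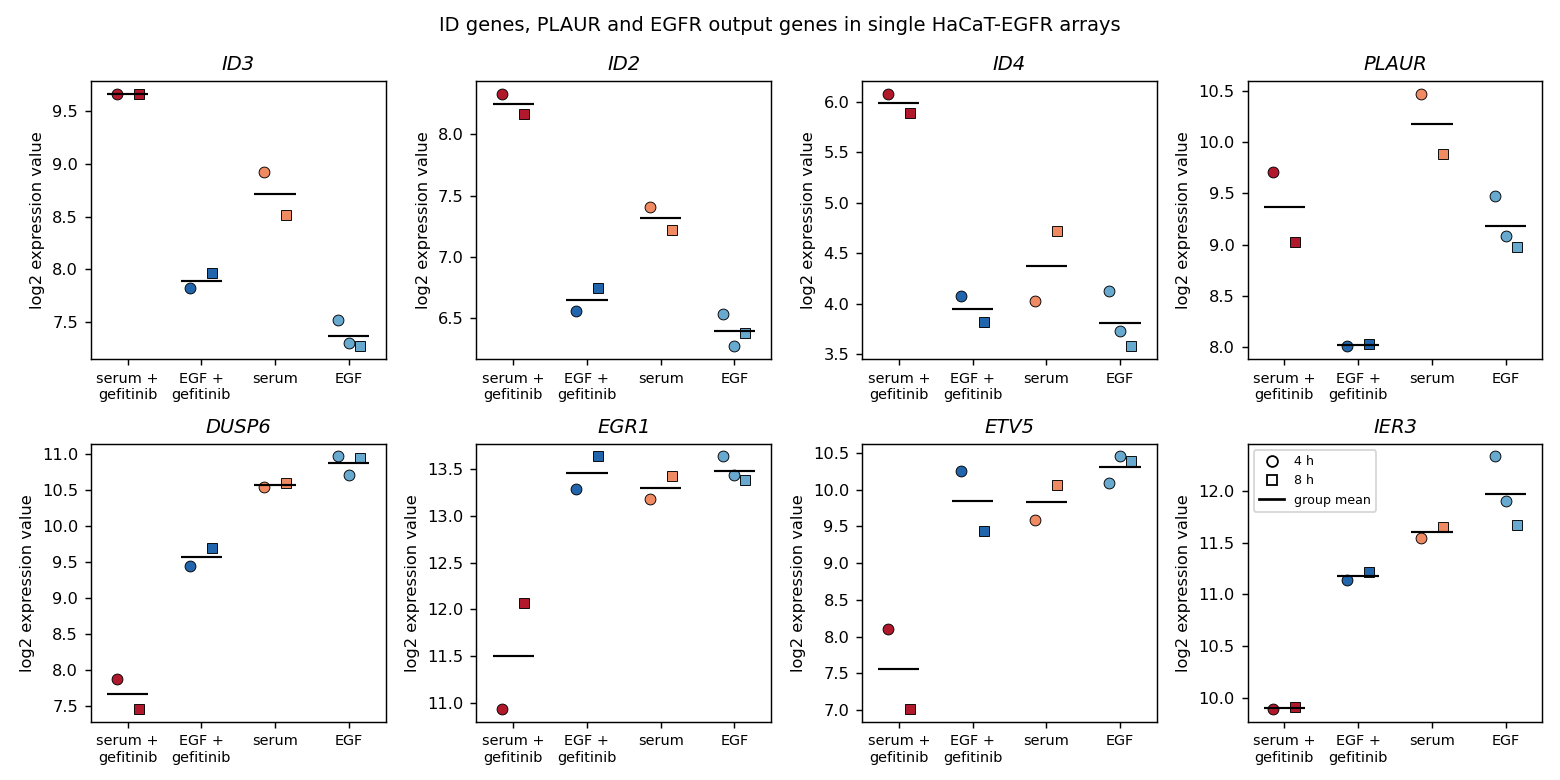
Log2 expression (y axes, each with its own range) of ID3, ID2, ID4, PLAUR, DUSP6, EGR1, ETV5 and IER3 in single HaCaT-EGFR arrays by group (x axis), with circles for 4 h, squares for 8 h and lines for group means. In the upper row serum with gefitinib lies above EGF with gefitinib, and in the lower row it lies below it, while serum and EGF without gefitinib are close in the lower row.

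In the lists of metallothioneins, NF-κB targets, ATF4 genes and FOXO-induced genes 0 members passed with gefitinib. The 8 metallothionein and zinc genes had a median of -1.11 with gefitinib, with 6 fully below (20.1% of all genes) and 1 fully above (23.0%), and 0.04 without it. MT2A, the most abundant metallothionein of many cells, had 11.59 and 11.35 in serum with gefitinib, and 12.56 and 12.71 in EGF with gefitinib, a difference of -1.17 ± 0.61 (SE, adjusted p = 1, and 0.0131 in a fit of batch 6 alone). Without gefitinib it had 12.66 and 12.65 in serum, and 12.57, 12.77 and 12.63 with EGF. In the fit of batch 6 alone with gefitinib, MT1G, MT1X, MT1HL1, MT1E, MT1H and MT1F also passed lower, with adjusted p-values between 0.0101 and 0.0393. The chemokines CXCL10 and CXCL1 passed higher in that fit (adjusted p = 0.0101 and 0.0441). Of 24 NF-κB targets 17 were fully above and 1 fully below with gefitinib, with a median of 0.56. TNFAIP3 differed by 1.23 ± 0.33 (SE, adjusted p = 0.167). The 23 ATF4 genes had a median of 0.02 with gefitinib, with 5 above and 5 below, and the 19 FOXO genes -0.28, with 0 fully above and 12 fully below.

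The 2 comparisons share no array, so their differences were set side by side. Of the 34 genes higher with gefitinib, 32 had a positive difference without it, 25 had both serum arrays above all EGF arrays (9.62% of all genes) and 3 passed. Their median difference was 0.93 with gefitinib and 0.55 without. The 9 lower genes all had a negative difference without gefitinib, 7 with no overlap (9.44% of all genes were fully below) and 0 passing, and medians of -1.27 with and -0.30 without. Both sets were chosen because they passed with gefitinib, which by itself favors larger differences there. These medians therefore cannot show whether gefitinib changed the gap. Over all genes 58.1% had the same sign in both comparisons. Tested directly, the gap differed with gefitinib in 0 (0.0%) of 19775 genes at an adjusted p under 0.05 and in 444 (2.25%) at an unadjusted p under 0.05 by limma. The lowest adjusted p was that of EGR1, 0.0935, whose gap was lower with gefitinib by -1.78 ± 0.33 (SE). DUSP6 had -1.61 ± 0.40 (SE, adjusted p = 0.774) and WFDC21P lay on the other side with 1.45 ± 0.33 (SE, adjusted p = 0.762).

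Many of the calls with gefitinib rest on all 4 arrays. ISG15, IFIH1, GJB2 and GRHL3 each passed in 1 of 6 alternatives and IER3 in 2, none of them without an array. OVOL1 and PLAUR passed in 2, ADAMTS9 in 3 and EZR in 1. WFDC21P and EGR1 passed without any 1 of them. Without the serum with gefitinib array at 4 h, or without the EGF with gefitinib array at 4 h, 3 of 43 genes still passed, which were WFDC21P, EGR1 and DUSP6. Without the EGF with gefitinib array at 8 h 7 genes passed, and DUSP6 was not among them (adjusted p = 0.0648), whereas IFIT1 and IFIT2 were. Without the serum with gefitinib array at 8 h 22 genes passed, of which 20 were among the 43. The directions of the 45 genes followed were kept in each of these fits.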

How the data were processed

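RNA of HaCaT lines was hybridized to Affymetrix U133 Plus 2.0 arrays. The authors normalized all arrays with fRMA, fitted condition and processing date with limma and removed the date effect, and the deposited values are log2 expression. A date constant cancels between arrays of batch 6. Refitting 18 conditions and 6 dates left date coefficients of at most 1.17e-08. The labels name a column kit for RNA and the study's sample sheet another reagent for batch 6, and the sheet also names another amplification.

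Of 54675 probe sets, 1801 with several gene symbols and 11777 without a symbol were left out, and 41097 remained. Where a gene had several, the one whose values averaged highest across the 58 arrays was kept, which left 19775 genes. limma 3.58.1 in R 4.3.3 fitted 30 means, 1 per condition and date, with 28 residual degrees of freedom, with Benjamini-Hochberg adjustment over the genes and a threshold of 0.05. Array values carry no detection call here, and the number of arrays limits the precision. Fully above or below means that the arrays of both groups do not overlap. The script was tested on simulated data. The comparison and the gene lists were chosen with earlier results of these data known. Genes named were those that passed, then up to 4 members a list in order of absolute difference, and all other genes named, also those named for the comparison with gefitinib, were chosen after their values were seen. Promoter windows are from RefSeq, GRCh38.p14. Batch 1 serum arrays were not used here, and 1 gene list is not reported here.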

Additional observations from a re-analysis of the deposited data

How the results depend on the processing

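The 3 genes higher in serum became 11 (10 higher, 1 lower, 1 shared with the 3) with 18 conditions and 6 dates as additive terms. The count was 8 with 4 h and 8 h fitted apart, and 7 with arrays centred on their medians. Over all 41097 probe sets with 1 symbol, 6 probe sets passed, those of the 3 IFIT genes and 1 of TRIO, a gene whose kept probe set had not passed. Batch 6 alone, the 5 arrays alone, quantile normalization, a trended robust prior, genes above the median level, another choice of probe set and leaving out a HaCaT-p65 array with conflicting labels gave 2 to 4. The TRIO probe set that joined over all probe sets had a log2 difference of 1.59 (adjusted p = 0.00273 by limma). Leaving out 1 array gave between 1 (without the serum array at 4 h) and 103 (90 higher, 13 lower, without the serum array at 8 h). The 43 genes with gefitinib became 33 on batch 6 alone (21 higher and 12 lower, 16 shared with the 43). The count with gefitinib was 37 after centring (30 shared with the 43), and 3 to 22 without 1 array. Genes whose gap differed with gefitinib stayed 0 on batch 6 alone and after centring, and numbered 0 to 11 without 1 array, 11 without the serum array at 8 h and 1 without the serum with gefitinib array at 8 h. GRHL3, at -0.21 without gefitinib, was 0.12 without the first EGF array at 4 h and 0.13 without the serum array at 4 h, and IFI44L, at -0.29, was 0.45 without the serum array at 4 h. Without the serum array at 8 h they were -0.55 and -1.04. Of 863 gene values followed without gefitinib, 836 kept direction and side of the threshold, 9 lost it and 15 gained it, and of 270 with gefitinib 182 kept both, 85 lost and 3 gained it. The cause was not tested. A group left with 1 array is assumed to vary like the others. No paired analysis was possible because replicate numbers in the labels run within a condition and time, where serum and EGF share only number 1. Times were matched instead in the fit with 4 h and 8 h apart. Serum and medium differ together between the groups, and the study's methods do not state whether the serum cells were starved first. Effects of serum, medium and any difference in starvation history cannot be told apart. With 2 serum arrays, the 4 h and 8 h samples serve as each other's replicate.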
